A study of Mus musculus with 12 samples.

Results

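In cultured mouse microglia, 10 genes were followed by whose products phagocytes take up dying cells and modified lipoproteins. They were chosen by name, by no rule on measured values, but with earlier results of these data known. They are the 3 receptors of the TAM family (Tyro3, Axl and Mertk), their ligands Gas6 and Pros1 and the bridging protein Mfge8. The others are the phosphatidylserine receptor Timd4 and the scavenger receptors Cd36, Msr1 and Marco. All 10 of 10 genes had a probe that passed the filter on dim signals, among 19801 genes tested, and Tyro3 and Msr1 each had 2 such probes, so that 12 probes were read in all. Each gene was represented by its probe of highest mean signal.

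The microglia came from mixed glial cultures of brains of neonatal C57BL/6 mice. They were given 1 of 3 media for 16 h, each diluted with an equal volume of fresh culture medium. The methods state this time and dilution in a sentence on astrocytes, under a heading that names both cell types. Untreated microglia, the controls, received IMDM, the medium in which T cells are grown, so that they too were given T cell medium. The Th1 group received the supernatant of T helper cells differentiated in vitro into interferon-gamma producing Th1 cells, and the Th17 group that of a Th17 culture. The supernatants and not the T cells were added, and each is a mixture of many secreted factors. Total RNA of 12 samples was hybridised to 12 one-colour arrays, 4 per group, and the sample names give each group the experiment numbers 12, 13, 14 and 16. An array is named here by its group and experiment, as in Th17 13.

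As background, a dying cell exposes the lipid phosphatidylserine on its outer surface. Timd4 binds this lipid directly, whereas the TAM receptor tyrosine kinases see it through Gas6 or protein S, and integrins see it through Mfge8. In microglia, Mertk and Axl are known for clearance of dying cells and for damping inflammatory signals, and the scavenger receptors bind oxidised lipoproteins and other polyanionic particles.

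Windows of 250 bases before the start of the gene are given for 3 genes that moved most with Th1 supernatant, Timd4 and Mertk, which rose, and Gas6, which fell. They are RefSeq sequences of assembly GRCm38.p6, written 5′ to 3′ on the strand of the gene. The Timd4 window lies at chr11:46810549-46810798 on the plus strand, the Mertk window at chr2:128698665-128698914 on the plus strand and the Gas6 window at chr8:13494536-13494785 on the minus strand. Capitals mark matches to the motifs named below.
Timd4: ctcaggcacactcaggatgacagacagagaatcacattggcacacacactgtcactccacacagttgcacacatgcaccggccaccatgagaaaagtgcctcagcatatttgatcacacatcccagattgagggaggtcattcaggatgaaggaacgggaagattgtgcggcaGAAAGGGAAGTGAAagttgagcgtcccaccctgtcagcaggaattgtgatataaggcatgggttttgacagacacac
Mertk: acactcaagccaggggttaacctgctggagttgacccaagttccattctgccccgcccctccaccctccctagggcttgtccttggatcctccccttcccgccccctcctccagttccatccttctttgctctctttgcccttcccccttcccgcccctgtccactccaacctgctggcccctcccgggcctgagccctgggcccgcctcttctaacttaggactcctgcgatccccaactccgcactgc
Gas6: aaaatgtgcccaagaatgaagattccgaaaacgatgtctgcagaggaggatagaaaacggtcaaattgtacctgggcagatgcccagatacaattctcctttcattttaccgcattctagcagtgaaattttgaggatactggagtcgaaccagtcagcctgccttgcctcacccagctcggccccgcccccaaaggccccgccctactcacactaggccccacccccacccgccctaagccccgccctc

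In all, 3 motifs were searched on both strands of these windows, the interferon-gamma activated site TTCNNNGAA, the core of the interferon-stimulated response element GAAANNGAA and the composite element GGAANTGAA, to which the macrophage factor PU.1 binds together with an interferon regulatory factor. The composite element was added after the Timd4 window had been read. A window was found for 9 of the 10 genes, all but Msr1. The Timd4 window held GAAANNGAA from 77 bases before the start and GGAANTGAA from 72 bases before it, and the matches overlap. The Marco window held GGAANTGAA from 12 bases before the start, and the Pros1 window held TTCNNNGAA from 92 bases before it. The windows of Mertk, Axl, Tyro3, Gas6, Mfge8 and Cd36 held none of the 3. Among 32851 windows of the same length, 7.02% held TTCNNNGAA, 7.13% held GAAANNGAA and 1.94% held GGAANTGAA. These are matches of letters, and binding was not measured.

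Signals are log2 normalised signal. Changes are log2 fold changes ± standard error (SE) from limma, fitted over all 12 arrays (n = 4 arrays per group), and adjusted p-values are Benjamini-Hochberg values over all 19801 genes. A gene was called where its adjusted p was under 0.01 and its change exceeded 2-fold. The labels call the cells microglia, and all 10 of 10 microglial marker genes were above background on all 12 arrays. Of 10 astrocyte markers, 4 exceeded background on every array (Aqp4, Aldh1l1, Fabp7 and Aldoc), with Aldoc at an untreated mean of 11.76. Gfap exceeded it on 10 arrays, and Gja1 and Sox9 on none. Every array also showed 7 of 10 oligodendrocyte lineage markers above background, with Mbp at an untreated mean of 13.70. The same held for 6 of 9 perivascular and meningeal macrophage markers, with Ms4a7 at an untreated mean of 17.60. It held for 4 of 8 fibroblast and mural markers and 3 of 6 endothelial markers. Of 8 T cell markers, Cd3d, Cd3g and Cd2 were above background on none and the other 5 (Cd3e, Cd4, Cd5, Cd28 and Lck) on all 12. Array Th17 13 stood apart from the other Th17 arrays. Among 3 interferon-induced genes picked after their values were seen, Cxcl9 read 13.89 on Th17 13 against 5.17 to 7.02 on the other Th17 arrays, Gbp2 read 12.85 against 8.88 to 11.03, and Irf1 read 14.38 against 13.34 to 13.86. The lowest Th1 arrays read 17.72, 18.18 and 17.31 for these genes.

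The first comparison asks how the uptake genes differ between microglia given Th1 supernatant and untreated microglia. Mertk, Axl and Timd4 rose and Gas6, Mfge8 and Cd36 fell, while Tyro3, Pros1, Msr1 and Marco were not called. Among all genes tested, 7.49% were called higher and 7.88% lower, so that 3 of 10 in each direction stands beside a background in which many genes changed. The median change of the 10 genes was 0.21, against -0.06 over all genes. Thus the TAM receptors Mertk and Axl rose while their ligand Gas6 fell, and Tyro3 and Pros1, a receptor and a ligand of the same family, were not called by the probes that stand for them.

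**Figure D1:**
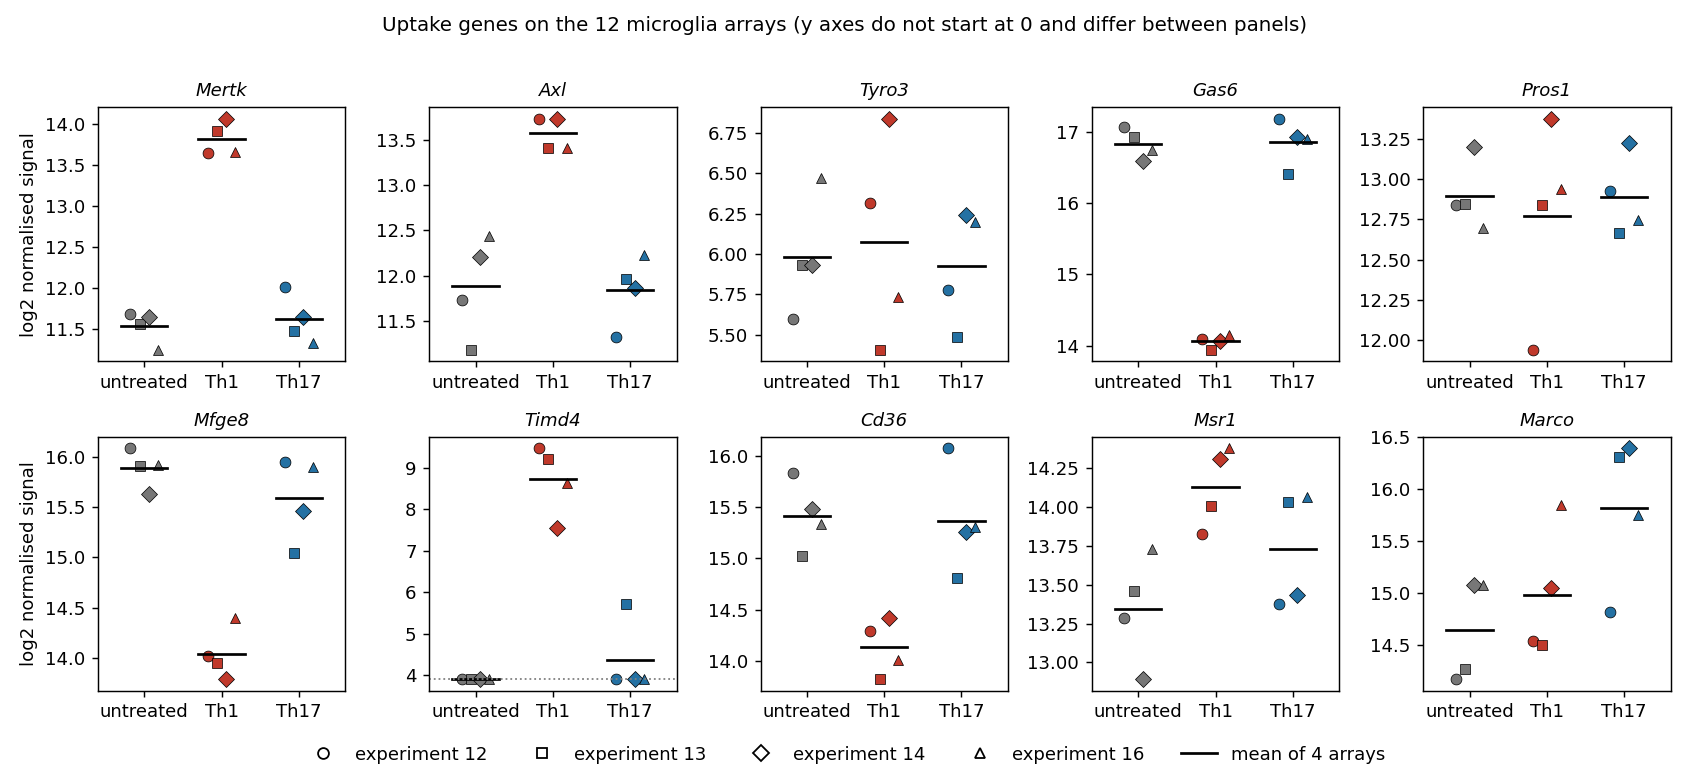
Log2 normalised signal (y axis) of each of the 10 uptake genes on the 12 arrays, by group (x axis). Each point is 1 array, its shape the experiment, the line is the mean of 4 arrays, and the dotted line for Timd4 is the floor of 3.91; the Th1 arrays lie apart from the untreated arrays for Mertk, Axl, Timd4, Gas6, Mfge8, Cd36 and Msr1.

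Mertk, the TAM receptor best known for engulfment of dying cells, read 11.68, 11.56, 11.64 and 11.24 on the untreated arrays of experiments 12, 13, 14 and 16 and 13.64, 13.92, 14.06 and 13.66 on the Th1 arrays. The groups did not overlap, and the pairs of equal experiment number differed by 1.96 to 2.42. The change was 2.29 ± 0.16 (adjusted p = 1.16e-06, limma), a 4.89-fold rise.

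Axl, the TAM receptor that macrophages raise during inflammation, read 11.73, 11.18, 12.21 and 12.44 on untreated arrays and 13.72, 13.41, 13.73 and 13.41 on Th1 arrays. The untreated arrays spread over 1.25 and the Th1 arrays over 0.33, so the rise per pair ran from 0.97 in experiment 16 to 2.22 in experiment 13. The change was 1.68 ± 0.26 (adjusted p = 0.000349, limma), a 3.20-fold rise.

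Tyro3, the TAM receptor most abundant in neurons, was dim. Its brighter probe read 5.60, 5.94, 5.94 and 6.47 on untreated arrays and 6.32, 5.41, 6.84 and 5.73 on Th1 arrays. The groups overlapped and the pairs went in both directions, with a change of 0.09 ± 0.30 (95% interval -0.58 to 0.76). The second probe read 4.70, 4.51, 4.58 and 4.08 on untreated arrays and 5.95, 6.08, 6.17 and 5.32 on Th1 arrays. By that probe Tyro3 rose by 1.41 ± 0.23 (adjusted p = 0.000477 in the limma fit of every kept probe), but the probe was above background on 2 of 4 untreated arrays only. The probes thus disagree, and no direction is given for Tyro3.

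Gas6, the ligand of all TAM receptors, was bright in untreated microglia, at 17.06, 16.92, 16.60 and 16.75, and read 14.10, 13.95, 14.06 and 14.15 on the Th1 arrays. The Th1 arrays lay within 0.20 of each other and 2.45 below the lowest untreated array. Gas6 fell by 2.77 ± 0.16 (adjusted p = 1.94e-07, limma), or 6.80-fold.

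Pros1 encodes protein S, a plasma anticoagulant and the ligand of Mertk and Tyro3. It read 12.84, 12.85, 13.20 and 12.69 on untreated arrays and 11.94, 12.84, 13.37 and 12.94 on Th1 arrays. Th1 12 was the lowest of these, and the groups overlapped. The change was -0.12 ± 0.26 (95% interval -0.69 to 0.44). It was 0.15 without Th1 12 and 0.04 with scaling to the 75th percentile alone, so no direction is given for Pros1.

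Mfge8, a secreted protein that links phosphatidylserine to integrins, read 16.09, 15.91, 15.63 and 15.92 on untreated arrays and 14.02, 13.95, 13.79 and 14.39 on Th1 arrays. It was lower in 4 of 4 pairs, with no overlap, and fell by 1.85 ± 0.21 (adjusted p = 2.78e-05, limma).

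Timd4, a phosphatidylserine receptor of tissue-resident macrophages and the gene with the motif matches shown in capitals, was not above background on any untreated array. All 4 untreated values stood at the floor of 3.91, whereas the Th1 arrays read 9.47, 9.21, 7.55 and 8.64, all above background. The fitted distance to the floor, 4.81, had an adjusted p of 8.72e-06 in limma. Timd4 was at least 24.2-fold higher after Th1 supernatant, a bound that was not itself tested. This bound sets the Th1 mean against the lowest signals that were well above background on the untreated arrays, and it holds for the processed signal alone. The fitted fold was 3.81 with normexp background correction and 8.43 with a floor of 50, and Timd4 was called in both (adjusted p = 7.18e-05 and 7.10e-05, limma). Timd4 passed the filter on dim signals only through the Th1 arrays, the group where it is high. Its p-values are therefore no independent support for the rise. Th1 14 gave the lowest and Th1 12 the highest of the Th1 values, a spread of 1.92.

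Among the scavenger receptors, Cd36, which binds oxidised lipoproteins, fatty acids and thrombospondin, read 15.83, 15.02, 15.48 and 15.33 on untreated arrays and 14.29, 13.82, 14.42 and 14.00 on Th1 arrays. The groups lay 0.60 apart, and Cd36 fell by 1.28 ± 0.26 (adjusted p = 0.00181, limma). Without the 3 arrays of experiment 14, an alternative chosen after the data were seen, the change was -1.35 and the call was lost (adjusted p = 0.0122).

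Msr1, the class A scavenger receptor, read 13.29, 13.46, 12.89 and 13.73 on untreated arrays and 13.83, 14.00, 14.31 and 14.38 on Th1 arrays by its brighter probe. The groups did not overlap and all 4 pairs were higher, but the change of 0.79 ± 0.22 was under 2-fold and did not pass (adjusted p = 0.0126, limma). With the experiment as a block the adjusted p was 0.00322 in limma, and the change was still under 2-fold. Without experiment 14 it was 0.58 (adjusted p = 0.0779, limma). The change passed when arrays were scaled to the 75th percentile without quantile normalisation (1.04, adjusted p = 0.00217). The second probe read 12.73, 12.48, 12.45 and 12.83 on untreated arrays and 13.79, 13.87, 14.20 and 13.85 on Th1 arrays, and by it Msr1 rose by 1.30 ± 0.17 (adjusted p = 9.29e-05 in the fit of every kept probe).

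Marco, a class A receptor that binds bacteria and particles, read 14.18, 14.27, 15.08 and 15.08 on untreated arrays and 14.54, 14.50, 15.05 and 15.85 on Th1 arrays. In both groups experiments 14 and 16 lay above experiments 12 and 13, the groups overlapped, and the change was 0.33 ± 0.40 (95% interval -0.54 to 1.20).

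**Figure D2:**
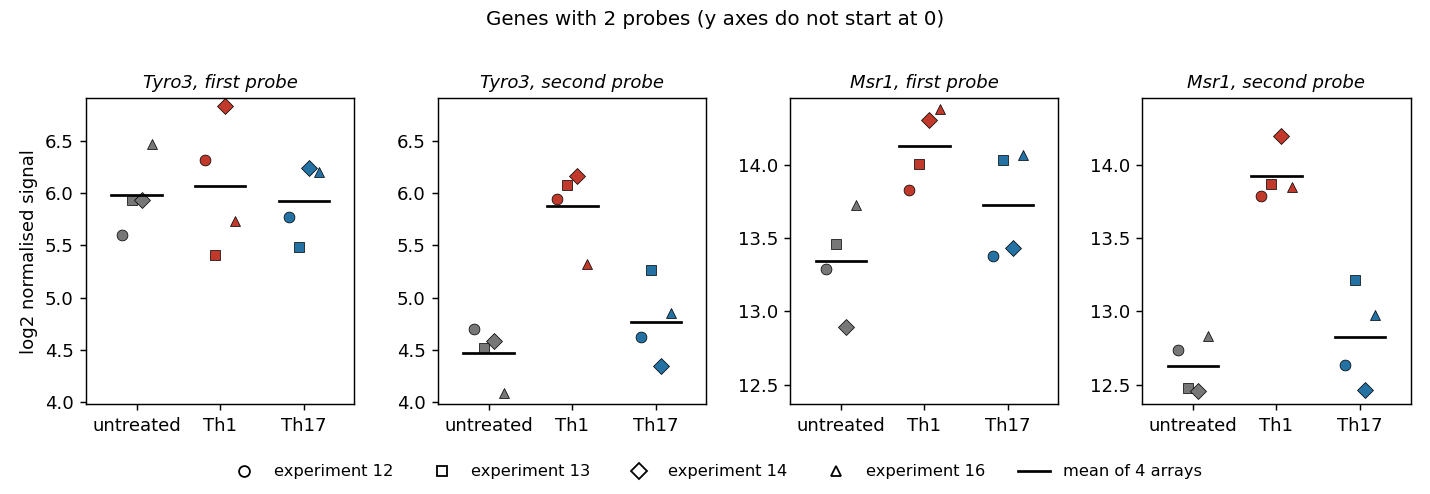
Log2 normalised signal (y axis) of both probes of Tyro3 and of Msr1 on the 12 arrays, by group (x axis), with 1 point per array, shapes for experiments and a line at the mean of 4 arrays. The second probe of each gene separates the 4 Th1 arrays from the untreated arrays, with changes of 1.41 and 1.30, and the first probe of Tyro3 does not, with a change of 0.09.

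Arrays were placed on 3 slides, each of which held all 3 groups. Within slides 1, 2 and 3, Th1 minus untreated was 2.02, 2.35 and 2.41 for Mertk, 2.27, 1.36 and 0.97 for Axl. For Timd4 the Th1 arrays lay 5.57, 4.48 and 4.73 above the floor, which are distances to an undetected group. The difference was -2.89, -2.59 and -2.60 for Gas6, -1.98, -1.77 and -1.53 for Mfge8, and -1.14, -1.36 and -1.33 for Cd36. The groups of each called gene did not overlap, so no slide could have shown the other direction, and only the sizes inform. Of these groups slide 3 held only untreated 16 and Th1 16, so its values repeat the pair of experiment 16. Markers of other cells also moved with Th1 supernatant. The summed linear signal of 9 perivascular and meningeal macrophage markers was 197107 to 267807 on untreated and 66548 to 113798 on Th1 arrays. This sum followed mainly Ms4a7, at a log2 mean of 17.60 on untreated and 16.18 on Th1 arrays. Pf4, the next brightest, was at 14.69 and 13.60. Of the 7 measured genes 2 rose and 4 fell, with Cd163 and Lyve1 above background on no array. The sum of the 10 astrocyte markers was 4991 to 12061 on untreated and 4230 to 5825 on Th1 arrays, while of 7 tested 0 rose and 1 fell (Fabp7), with a median change of 0.15. The sum of the 8 T cell markers was 9844 to 11240 on untreated and 7485 to 8654 on Th1 arrays, and of 5 tested 1 rose and 2 fell. Of the oligodendrocyte lineage markers 2 of 8 rose and 2 fell, of the endothelial markers 1 of 4 rose (Vwf) and 0 fell, and of 5 fibroblast and mural markers 0 were called, with 1 at an unadjusted p under 0.05 in limma. The microglial markers moved too, 3 of 10 up and 3 down, with Cx3cr1 at a mean of 16.94 on untreated and 10.63 on Th1 arrays. The part of such cells in the changes above was not tested. In these bulk samples, fewer cells of a type and less RNA per cell cannot be told apart.

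The second comparison asks the same of Th17 supernatant, against the same untreated arrays as the first. None of the 10 genes was called by limma, and 0% of all 19801 genes were called, with 325 genes at an unadjusted p under 0.05. Of the 10, Marco alone had an unadjusted p under 0.05. On the Th17 arrays Marco read 14.82, 16.31, 16.39 and 15.76, higher than the untreated array of the same experiment in 4 of 4 pairs, by 0.65 to 2.04, although the groups overlapped because Th17 12 lay below untreated 14 and 16. The change of 1.17 ± 0.40 had a 95% interval of 0.30 to 2.04 and an unadjusted p of 0.0129 in limma, and it failed the correction (adjusted p = 1). Within slides 1, 2 and 3 it was 0.60, 1.23 and 1.00, and it was 1.01 without Th17 13. With the experiment as a block its SE was 0.29 and its adjusted p 0.901 in limma.

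**Figure D3:**
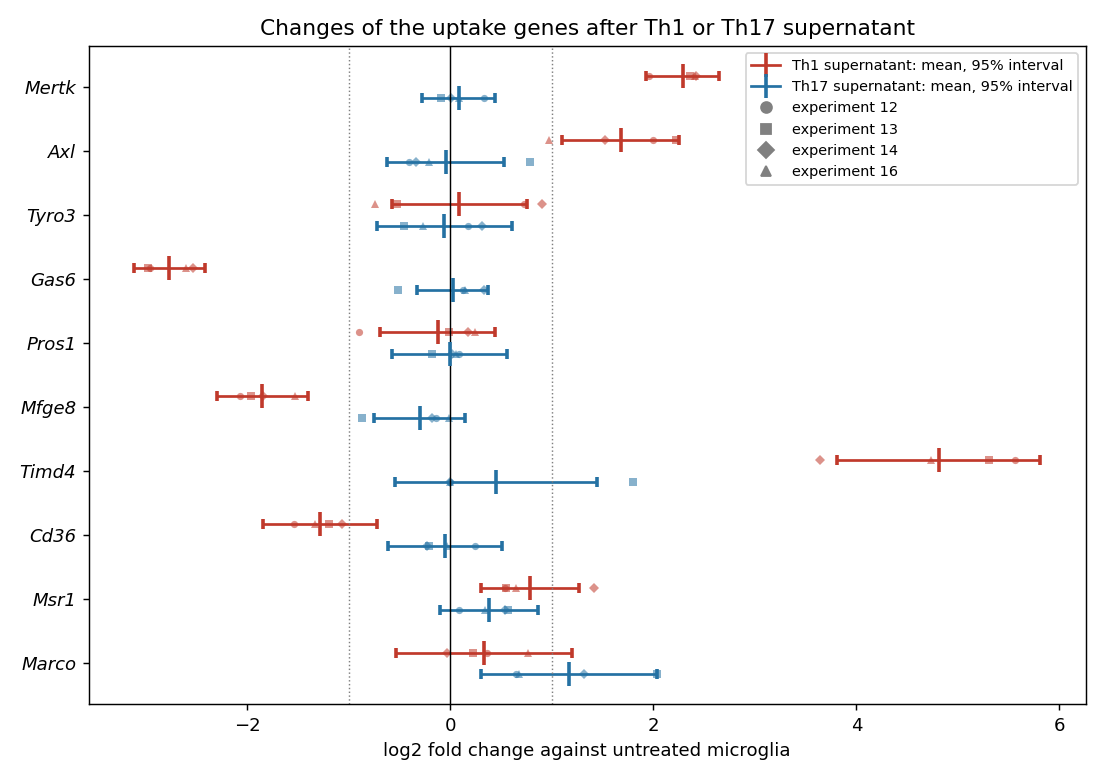
Log2 fold change against untreated microglia (x axis) of the 10 uptake genes (y axis) after Th1 supernatant (red) or Th17 supernatant (blue), with the mean of 4 arrays per group and its 95% interval from limma, and small points for the 4 pairs of equal experiment number. Dotted lines mark a 2-fold change; Mertk, Axl and Timd4 lie right of them and Gas6, Mfge8 and Cd36 left of them after Th1 supernatant, and after Th17 supernatant the mean of Marco alone lies beyond 2-fold, at 1.17. Timd4 was undetected in untreated microglia, so its points are distances to the floor.

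The other 9 genes changed by -0.30 to 0.45 with Th17 supernatant. Mertk read 12.01, 11.47, 11.64 and 11.33 on the Th17 arrays, a change of 0.08 with a 95% interval of -0.28 to 0.44, and Gas6 read 17.18, 16.41, 16.93 and 16.89, a change of 0.02 with an interval of -0.32 to 0.37. For these genes the intervals leave no room for a 2-fold change, as was also true of Axl (-0.62 to 0.53), Pros1 (-0.57 to 0.56), Mfge8 (-0.75 to 0.15), Cd36 (-0.61 to 0.51), the brighter probe of Msr1 (-0.10 to 0.87) and that of Tyro3 (-0.72 to 0.61). The interval of Timd4 was wider, -0.55 to 1.45, since Timd4 was above background on 1 of the 4 Th17 arrays, Th17 13, where it read 5.71, and at the floor on the others. Against untreated 13, Th17 13 was also higher for Axl by 0.78 and lower for Gas6 by 0.51, for Mfge8 by 0.87 and for Cd36 by 0.21, and was 0.09 lower for Mertk. Over the 4 pairs with Th17 supernatant, Mertk was higher in 3, and Axl and Timd4 in 1 each. Mfge8 was lower in 4, Cd36 in 3 and Gas6 in 1, so Th17 13 was not alone in this for Mfge8 and Cd36. That array also held the highest Th17 signals of Cxcl9, Gbp2 and Irf1. The part of these in the Th17 values was not tested.

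The third comparison sets Th1 against Th17 supernatant and shares the Th1 arrays with the first. Mertk (2.21 ± 0.16), Axl (1.72 ± 0.26) and Timd4 were called higher with Th1, where 6.89% of all genes were, and Gas6 (-2.79 ± 0.16), Mfge8 (-1.55 ± 0.21) and Cd36 (-1.23 ± 0.26) were called lower, where 7.91% were. Their adjusted p-values in limma ran from 2.29e-07 for Gas6 to 0.00252 for Cd36. For Timd4, 3 of the 4 Th17 arrays stood at the floor, so its fitted difference of 4.36 is not a measured one, and it was 1.80 with normexp background correction and 5.29 with no floor. The call of Cd36 was lost with scaling to the 75th percentile alone (-0.93, adjusted p = 0.0148), without Th17 12 (-0.99, adjusted p = 0.00477, under 2-fold) and without experiment 14 (-1.36, adjusted p = 0.0128). Marco was the single gene of the 10 with a negative change here and a positive one with Th1 against untreated. It lay 0.84 ± 0.40 lower with Th1 than with Th17 supernatant (95% interval of the change -1.71 to 0.03, adjusted p = 0.111, limma), in 3 of 4 pairs. With the experiment as a block the SE was 0.29 and the adjusted p 0.0371 in limma, still not called. Without experiment 14 the adjusted p was 0.314 in limma. Msr1 differed by 0.40 ± 0.22 (adjusted p = 0.161) by its brighter probe and by 1.10 (adjusted p = 0.000328 in the fit of every kept probe) by the second.

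Further genes of engulfment were read from a list of 74, of which 64 were tested. With Th1 supernatant 7 of the 64 rose and 16 fell, beside 7.49% and 7.88% of all genes, and 41 were not called, with a median of -0.01 against -0.06 over all genes. With any 1 array left out, 20 to 23 of the 64 were called. Of 18 further receptors and co-receptors 1 rose and 8 fell. Cd300lf, a lipid receptor that also inhibits myeloid cells, rose by 6.71 ± 0.72, and by 6.77 and 5.10 with its other probes. The fallers included Itgb3 (-5.44 ± 0.61), which with Itgav forms an integrin that binds Mfge8. The integrin subunit Itgb5, brighter than Itgb3 in untreated microglia (15.68 against 10.08), fell by 1.90 ± 0.27. Itgb3 was above background on 2 of 4 Th1 arrays, and its second probe, above background on no Th1 array, gave a level at least 1.88-fold lower. Cd14, a co-receptor for lipopolysaccharide and dying cells, fell by 3.28 ± 0.38 and the lipid receptor Trem2 by 2.50 ± 0.22. Of the 8 receptors, Havcr2 was just past 2-fold (-1.01 ± 0.24) and lost its call without untreated 12, 13 or 16 and without Th1 13, 14 or 16, each left out alone. The integrin subunit Itgav was lower in 4 of 4 pairs, at -1.33 ± 0.43, and was not called (adjusted p = 0.0252, limma). With the experiment as a block it was called (SE 0.21, adjusted p = 0.000741), as it was against Th17 supernatant (-1.08, adjusted p = 0.00239).

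Of 10 further bridging molecules and opsonins, C3, the central complement protein, rose by 4.02 ± 0.70, and Thbs1, a ligand of Cd36, by 1.59 ± 0.34, while Anxa1 fell by 3.69 ± 0.31. The call of Thbs1 was lost without untreated 12 (1.43, adjusted p = 0.0101) and without Th1 12 (1.49, adjusted p = 0.0105). The C1q chains, which coat dying cells, differed by 0.84 (C1qa), 0.83 (C1qb) and 0.48 (C1qc) and were not called, since each changed less than 2-fold. Of 16 genes of the internal engulfment machinery 0 rose and 2 fell, Dock5 by 1.87 ± 0.45 and Dock1 by 1.21 ± 0.21, the guanine exchange factor that activates Rac1. An unadjusted p under 0.05 in limma was reached by 9 of the 16 (56.3%), beside 51.7% of all genes. The call of Dock5 was lost without untreated 13, 14 or 16 and without Th1 12, 13 or 14, each left out alone (adjusted p = 0.0105 to 0.0183). Dock5 was above background on 2 of 4 Th1 arrays. Its call was also lost with normexp background correction (-0.48, adjusted p = 0.0202, limma) and with a floor of 50 (-0.96, adjusted p = 0.0763). Rac1 itself changed by 0.30 ± 0.09.

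Of 8 genes of lipid sensing and efflux, the cholesterol exporter Abcg1 rose by 2.98 ± 0.28 and the nuclear receptor Ppard by 1.20 ± 0.18, while the nuclear receptor Pparg, an activator of Cd36, fell by 3.35 ± 0.31. Of 8 further scavenger receptors Scarf2 rose by 1.69 ± 0.21 and Colec12 and Scarb1 fell by 2.95 and 1.42. Scara3 was also called and was above background on no Th1 array, which put it at least 3.37-fold lower, but its call was lost with normexp background correction (-0.50, under 2-fold) and with a floor of 50 (-0.62, adjusted p = 0.0113). Of the inhibitory pair by which live cells are spared, Cd47 rose by 1.44 ± 0.20 and its receptor Sirpa fell by 1.03 ± 0.13. Sirpa was just past 2-fold, and its call was lost without untreated 12 (-0.99), untreated 13 (-0.996) or Th1 13 (-0.98) and with 75th percentile scaling (-0.87). The proteases Adam10 and Adam17, of which Adam17 sheds Mertk from the surface, changed by -0.83 ± 0.23 and -0.36 ± 0.21 and were not called (adjusted p = 0.0117 and 0.199, limma).

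**Figure D4:**
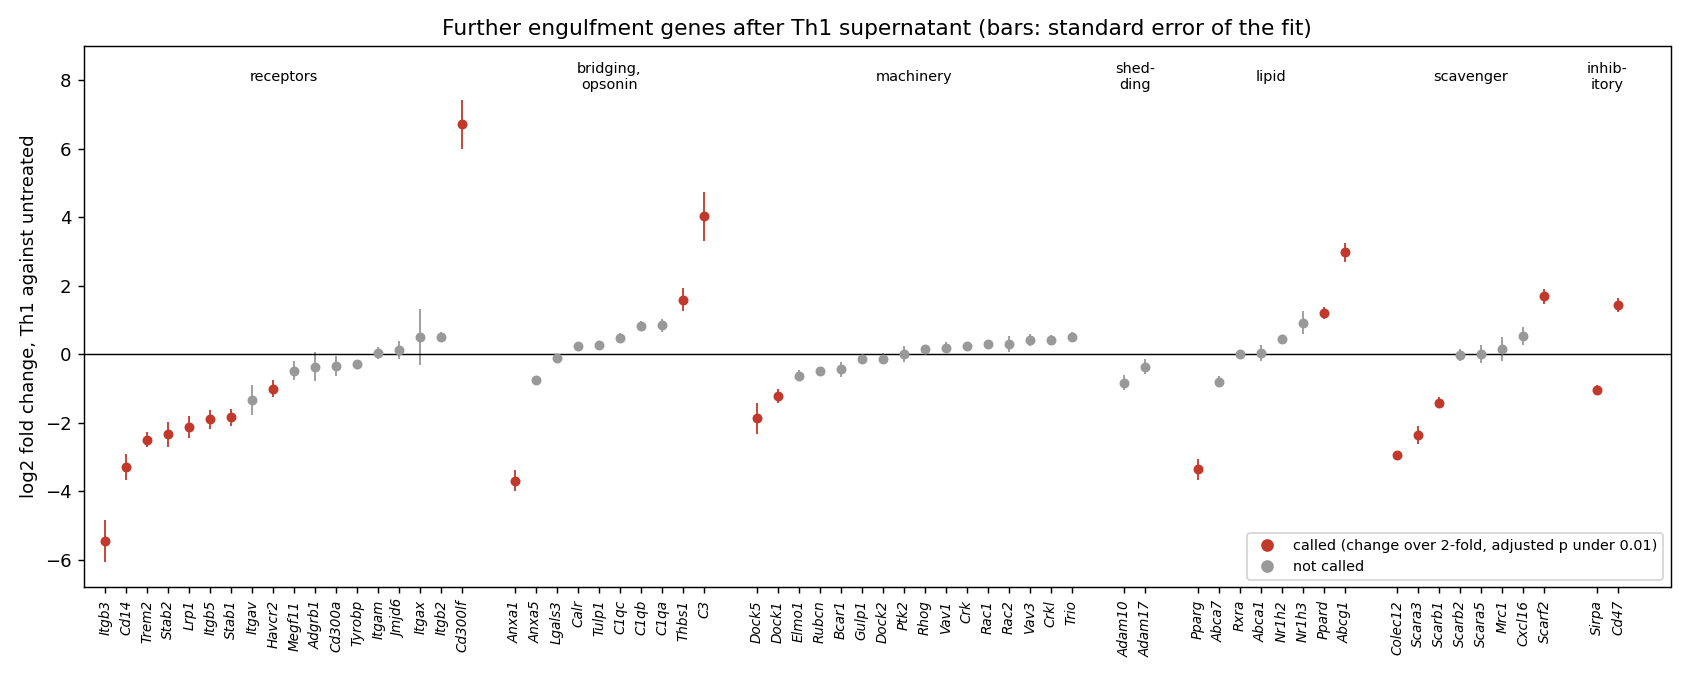
Log2 fold change of Th1 against untreated microglia (y axis, bars are the SE of the limma fit) for the 64 further engulfment genes tested, grouped by role along the x axis. Red points are called genes, and 8 of 18 receptors lie among the called falls, the lowest being Itgb3 at -5.44. Itgb3 stood at the floor on Th1 12 and Th1 13, so its point is partly a distance to the floor. Scara3 was undetected after Th1 supernatant, so its point is a distance to the floor.

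With Th17 supernatant 0 of the 64 genes were called by limma and 4 had an unadjusted p under 0.05. These were Abca1 (0.66 ± 0.24), Mrc1 (0.85 ± 0.34), Colec12 (-0.39 ± 0.13) and Scara3 (-0.59 ± 0.26), each with an adjusted p of 1 and with overlapping groups. Between Th1 and Th17 supernatant, 7 of the 64 were called higher and 15 lower with Th1, beside 6.89% and 7.91% of all genes. Of the 7, C3 lost its call in 9 of 12 fits that left out 1 array and in 4 of 11 other alternatives. Its adjusted p ran from 0.000595 to 0.0334 over all of them (limma). On Th17 13 C3 read 16.01, against 12.47 to 14.42 on the other Th17 arrays. Leaving out 1 array at a time gave differences of 2.28 to 3.46, the highest without Th17 13.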

How the data were processed

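Per the file headers, spot values were extracted by the authors with Feature Extraction 10.7.3.1 (Agilent). These deposited values are intensity on a linear scale, background-subtracted and detrended in the processed signal used here, and not scaled between arrays. A deposited value table holds log2 values and served as an alternative only. Its scale is unstated, and it matched log2 signal scaled to the 75th percentile and centred per probe (Pearson r of at least 0.99999 over 15898 bright probes, column medians -0.23 to 0.18).

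Control spots were left out, and of the remaining spots those flagged as outliers (103 to 230 per array). Repeated spots were reduced to their geometric mean, then values were quantile normalised, scaled to a 75th percentile of 1500, floored at 15 and log2 transformed. Probes well above background on at least 4 of 12 arrays were kept (24286 of 39429), 54.5% to 65.0% of probes being above background per array. The 75th percentile before scaling ran from 1200 to 2214. Precision is limited by the number of arrays. Probe accessions were named through RefSeq (GRCm38.p6, whose coordinates were not set against those of the files), with a symbol for 27234 probes.

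The comparisons used limma 3.58.1 (R 4.3.3), with 1 mean per group over 12 arrays and no block, checked on simulated data. The genes, lists and motifs were chosen with earlier results of these data known. All probes of the 10 genes are named, and from the further engulfment genes the 6 largest rises and 6 largest falls called per comparison, with the brighter group above background on 4 of 4 arrays, moving 1 way in 4 of 4 pairs. Stab2, a lower value of the third comparison, falls under this rule too (-2.97). Other genes of that list were named after their values were seen, for their role. For 2 of the 74 no probe was matched, and for 8 the probe was not kept. Experiment numbers paired the samples, since the study describes independent experiments and deviations from the group mean correlated between same-numbered arrays. All 12 of these correlations exceeded 0.1 (0.24 to 0.63). P-values measure the spread between these cultures. Alternatives were the experiment or slide as a block, other scaling, background correction, floors and filter, every probe, 8 arrays only, and each array or experiment 14 left out. The normexp alternative used median spot signals, as mean spot signals were not analysed here.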

Additional observations from a re-analysis of the deposited data

Results flagged for a closer look

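Among the 74 gene-by-group sets of 4 arrays that were checked for a lone array far from the rest, 2 had one. The critical value used is passed by chance in about 1 of 20 such sets, and with 3 of 4 values at the floor any detected array passes it. Timd4 read 5.71 on Th17 13, with the other 3 Th17 arrays at the floor of 3.91. Without that array, Th17 and untreated microglia were both at the floor for Timd4, and the fitted difference of Th1 against Th17, 4.36 with it, became a distance to the floor. Thbs1, the thrombospondin that binds Cd36 and Cd47, read 9.70 on Th1 12 against 9.27 to 9.31 on the other Th1 arrays, all of which lay above the untreated arrays.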

How the results depend on the processing

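Of 1242 comparisons of a single gene with an alternative, 1176 kept their direction and their side of the threshold, 23 lost a call, 6 gained one and 37 changed sign, none of these where either value was called. With the experiment as a replicate block, 6, 0 and 6 of the 10 genes were called for Th1 against untreated, Th17 against untreated and Th1 against Th17, as without it, and the block changed no call of these genes. Among the 64 further engulfment genes it added Itgav in both Th1 comparisons and changed no other call. Normexp background correction moved the genes called from 3044 to 2001 for Th1 against untreated and from 2931 to 1922 for Th1 against Th17, and the cause was not tested. Signs changed only for small, uncalled values. With 75th percentile scaling and with the value table, respectively, Tyro3 was -0.058 and -0.057 and Pros1 0.040 and 0.041 for Th1 against untreated, Pros1 was 0.061 and 0.061 for Th1 against Th17, and Gas6 was -0.055 and -0.054 for Th17, for which normexp gave -0.031. For Th17, the second probe gave Tyro3 as 0.30, and the slide as a block gave Cd36 as 0.030. Without experiment 14, chosen after seeing the data, Tyro3 was -0.18 and, against Th17, -0.00035, and for Th17 Axl was 0.055, Gas6 -0.081 and Cd36 0.0033. Leaving out each array in turn gave Tyro3 -0.16 to 0.31 and Pros1 -0.32 to 0.15 for Th1 against untreated and -0.11 to 0.37 and -0.32 to 0.16 against Th17. For Th17 against untreated it gave Mertk -0.050 to 0.18, Axl -0.28 to 0.14, Tyro3 -0.19 to 0.10, Gas6 -0.087 to 0.17, Pros1 -0.12 to 0.10 and Cd36 -0.29 to 0.13. The 10 genes held 7 calls for Th1 against untreated with 75th percentile scaling and 8 with every probe, and 5 and 8 for Th1 against Th17. Dim probes limit Timd4 and Tyro3.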
